A study of Mus musculus with 2 samples.

Results

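The axon guidance genes described here are 50 mouse genes of the semaphorin, Eph, Slit and netrin systems, and 39 of them carried at least 1 differentially methylated region between PDGFRα+ and CD137+ adipose progenitors. Members were named by family (14 semaphorins, 7 plexins, 2 neuropilins, 10 Eph receptors, 5 ephrins, 3 Slits, 2 Robos, 2 netrins, and DCC with 4 UNC5 receptors), and a region belonged to a member when it overlapped the RefSeq gene body extended by 5 kb on both sides. This gave 223 distinct regions of the 34139 in the authors' list, and 50 of 21887 protein-coding genes. The members leave out 22 genes of the same families, which are counted further on.

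The study compared 1 bisulfite library of PDGFRα+ progenitors with 1 bisulfite library of CD137+ progenitors. Both came from C57BL/6 mouse adipose tissue, were sorted with magnetic beads, cultured, put through an adipogenic cocktail and treated with DEX, the usual abbreviation of the synthetic glucocorticoid dexamethasone, which the labels do not spell out. PDGFRα (CD140a) is a surface receptor found widely on adipose progenitors, and CD137 is a surface protein linked to beige fat precursors. The labels do not say whether a library came from subcutaneous or visceral fat, nor how many animals were pooled. Neither library was untreated, so no region can be read as a response to dexamethasone. The list carries no methylation level, coverage or expression value, so the labelled identity of the cells could not be checked against their markers, and depth is unknown.

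Each region has only the authors' signed score, which has no stated unit. The list is titled with the PDGFRα+ sample first, but the order of subtraction is not stated, so regions are described as negative or positive. Each group is a single library (1 each), so the data hold no error between replicates, and no test between groups and no p-value is given. Intervals on shares are 95% Wilson intervals that cover the counting of regions only.

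Guidance proteins steer growing axons and migrating cells by attraction or repulsion. Semaphorins signal through plexins, often with neuropilins as co-receptors. Ephrins bind Eph receptor kinases on a touching cell, and signals can run in both directions. Slits repel through Robo receptors, and netrins attract through DCC or repel through UNC5 receptors. In adipose tissue and other organs the same proteins act on vessel growth, innervation and cell sorting.

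The 50 members carried regions far more often than protein-coding genes at large, but only somewhat more often than genes of their own length. They were chosen with earlier results of these data known. The 22 left-out genes of the same families held 20 regions, against 29.6 for the sum of their like-length averages. A region was present in 39 of 50 members (78%), against 35.1% of all protein-coding genes. The members are long, with a median of 147 kb and a range of 7.06 kb (Efnb3) to 1555 kb (Robo2), and long genes offer more sequence. When each member was set beside 200 other protein-coding genes of the nearest length, an average of 68.0% of those genes had a region. The members held 223 regions, against 184 for the sum of the like-length averages, a ratio of 1.21. Of the 50 members, 26 had more regions than the median of their like-length genes, 15 had the same number and 9 had fewer. The excess was clearest at 50 to 150 kb: the 10 members of that length class all had a region, with a mean of 4.7 regions. Other genes of that class had a mean of 1.69, but the class is wide and is not matched for length within. The closer like-length averages of these 10 members ran from 1.25 (Unc5a) to 3.4 (Nrp1). The 13 members of 150 to 400 kb averaged 5 regions, against 4.62 at other genes of that class. For the 17 members under 50 kb the mean was 0.647, against 0.365. The 10 members over 400 kb averaged 10 regions, against 9.38 at other genes of that class. Their like-length averages ran from 7.42 (Plxna4) to 10.7 (Dcc). For the longest members the match is loose, with like-length genes of 527 to 2271 kb for Dcc (1098 kb).

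Counted by gene, strong regions set the members further apart from like-length genes. The choice of members with earlier results known limits this contrast as well as the counts above. A region with an absolute score of 100 or more was present in 24 of 50 members (10.8% of all protein-coding genes), where like-length genes averaged 28.1%. These 24 genes held 42 strong regions, 25 negative and 17 positive, out of 223. In the whole list 15.5% of regions were that strong. Among the 22 genes of the same families left out of the members, 1 had a strong region. The regions themselves were ordinary in size, with a median width of 112 bp and a median absolute score of 48.8 at the members, and 112 bp and 49.4 in the whole list.

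**Figure D1:**
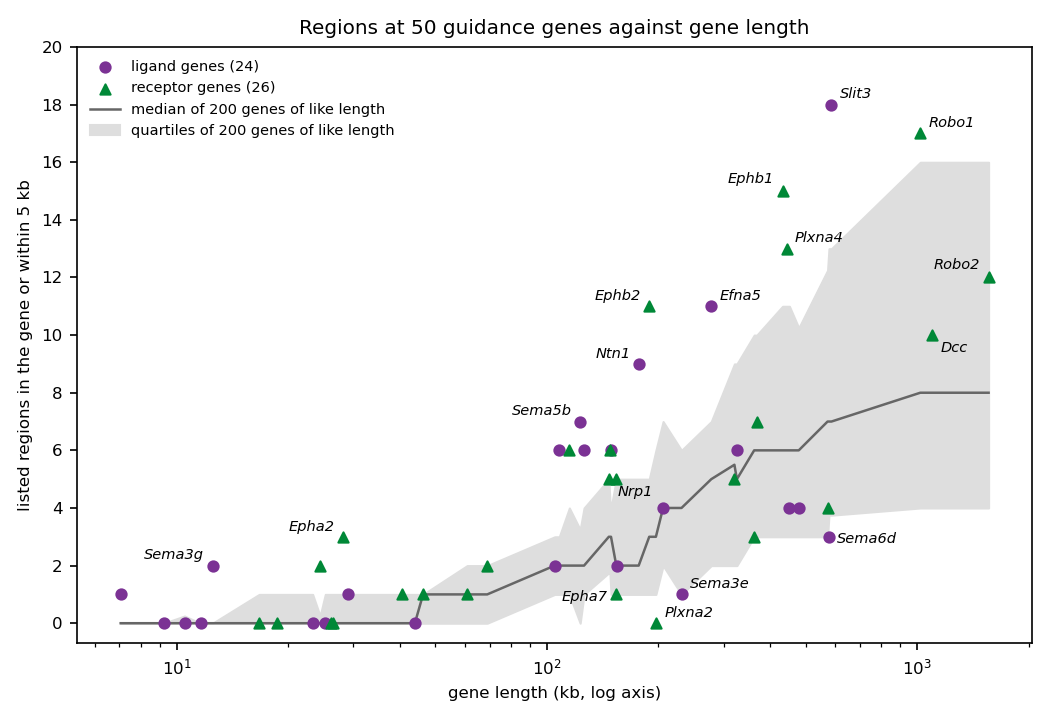
Number of listed regions per gene (y axis) against gene length in kb (x axis, log scale) for the 24 ligand and 26 receptor genes; the line and the grey band are the median and quartiles of the 200 other protein-coding genes of nearest length. Slit3 with 18 regions, Robo1 with 17 and Ephb1 with 15 stand highest, and Plxna2 has 0 where its like-length genes have a median of 3.

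The sign of the regions was more even at the guidance genes than in the list as a whole. Of the 223 regions 130 were negative, or 58.3% (51.7 to 64.6), against 67.4% of all listed regions and 66.3% at genes of like length. The lower share was seen at members of middle length: 46.8% of 47 regions were negative at those of 50 to 150 kb (66.9% at other genes of that length) and 49.2% of 65 at those of 150 to 400 kb (65.3%). The 10 members over 400 kb, with 100 of the 223 regions, were 68% negative, against 67.8% at other genes of that length. Members with both signs numbered 26, members with only negative regions 9 and members with only positive regions 4. Among the protein-coding genes with regions, 51.8% had only negative and 20.9% only positive ones. Most of those genes hold few regions, which by itself makes a single sign more likely, so these shares are not matched to the members. Neighbouring regions of the same member had the same sign in 107 of 184 pairs (58.2%, 50.9 to 65.0), against 67.4% (66.6 to 68.2) at other protein-coding genes. Without Ephb1 it was 93 of 170 pairs (54.7%, 47.2 to 62.0). A more even mix of signs by itself lowers such agreement, and the pairs were not matched for it.

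Taken over all lengths, ligand genes were closer to an even split of signs than receptor genes, although their intervals overlapped. Among ligands 18 of 24 genes had a region, where like-length genes averaged 65.4%, and 48 of their 93 regions were negative (51.6%, 41.6 to 61.5). Among receptors 21 of 26 genes had a region, where like-length genes averaged 70.3%, and 82 of their 130 regions were negative (63.1%, 54.5 to 70.9). A single receptor gene, Ephb1, moved that figure: without it 67 of 115 receptor regions were negative (58.3%, 49.1 to 66.9). The order also varied with gene length. Over 400 kb, the class of Ephb1, 51.7% of ligand and 74.6% of receptor regions were negative, and at 150 to 400 kb 45.5% and 53.1%. At 50 to 150 kb the order was reversed (51.9% and 40%), as it was under 50 kb with few regions (4 of 4 and 4 of 7). Both sides held 1.21 times the sum of their like-length averages in regions.

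By family, the EphB receptors and the netrins had many regions for their length. The class 3 semaphorins and UNC5 receptors had fewer in total than the sum of their like-length averages, though not gene by gene. The 5 EphB genes held 28 regions, 2.28 times the sum of their like-length averages, and the 2 netrins held 11, or 2.13 times. Neuropilins (11 regions, 1.85 times), ephrins (12, 1.68 times) and Slits (30, 1.60 times) followed. EphA receptors held 18 regions (0.846 times), the 4 UNC5 genes 14 (0.748 times) and the 7 class 3 semaphorins 14 (0.664 times). The low UNC5 total lay at Unc5d (4 regions, like-length average 8.77). Unc5b and Unc5c were above their like-length medians, and Unc5a was equal to its own. Of the 7 class 3 genes 6 had a region (like-length average 62.4%). Against their like-length medians 2 had more regions, 2 fewer and 3 the same number. These families hold 2 to 7 genes each, and 1 gene carries most of the count in several of them.

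Sign also differed between families in this list. The semaphorin, plexin and neuropilin genes together had 31 of 71 regions negative (43.7%, 32.7 to 55.2). This interval lies below the 67.4% of the whole list and the 65.7% at genes of like length. It counts each region as independent, although regions of a gene may not be, and so may be too narrow. At the ephrin and Eph genes 39 of 58 were negative (67.2%, 54.4 to 77.9), and Ephb1 gave 15 of these 39. Without Ephb1 the Eph receptors had 16 of 31 negative (51.6%, 34.8 to 68.0), against 31 of 46 (67.4%, 53.0 to 79.1) with it. At the Slit and Robo genes 36 of 59 were negative (61.0%, 48.3 to 72.4), and at the netrin, DCC and UNC5 genes 24 of 35 (68.6%, 52.0 to 81.4). The last of these combined a netrin pair with 5 of 11 negative and receptors with 19 of 24 negative. No difference between families was tested, since neighbouring regions of a gene share its sequence and its 2 libraries.

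**Figure D2:**
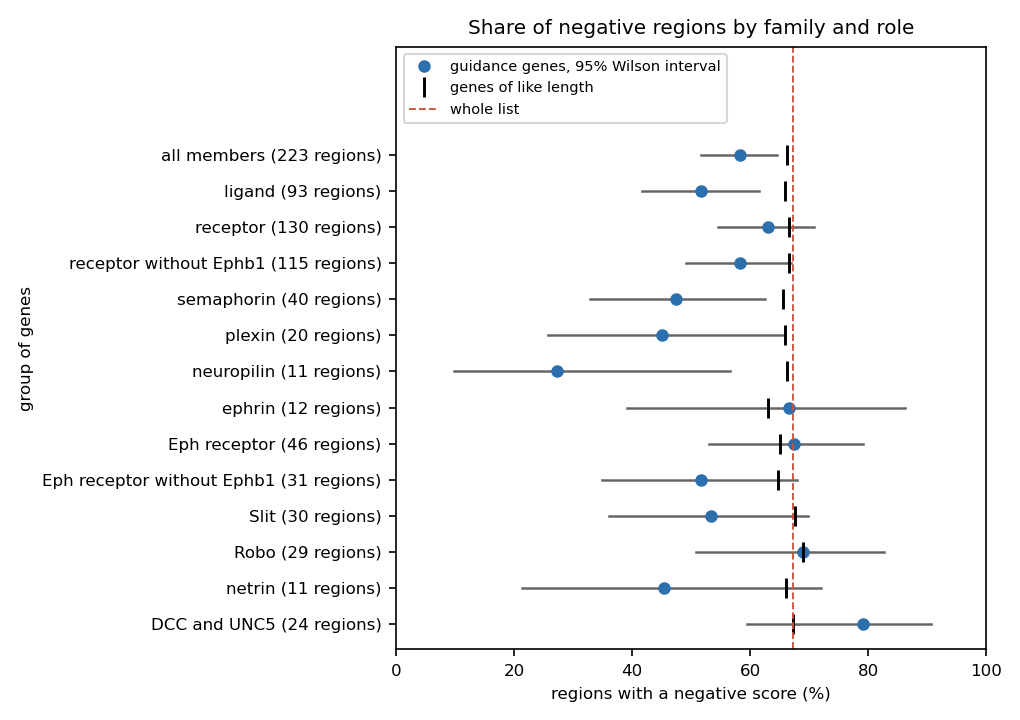
Share of regions with a negative score (x axis, percent) for groups of guidance genes (y axis), with 95% Wilson intervals as lines, the share at genes of like length as a tick and the 67.4% of the whole list as a dashed line. Semaphorins, plexins and neuropilins lie left of the dashed line with their whole intervals, which count each region as independent. The DCC and UNC5 point lies right of it, with an interval (59.5 to 90.8) that includes the line.

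Most regions lay inside the genes, whose bodies make up most of the windows. Of the 223 regions 212 overlapped the member's body and 11 lay only in the 5 kb beside it. A region at a gene end, taken as 2000 bp on the outer and 500 bp on the inner side of each end, was present in 7 of 50 members, against 6.77% of all protein-coding genes. Among the 40 members whose strand the RefSeq start table gives, the 167 regions inside the body were spread over 4 equal parts of the gene, in order from its start, as 39, 42, 43 and 43. These are 23.4, 25.1, 25.7 and 25.7%, against 23.7, 23.8, 25.6 and 26.9% at other protein-coding genes.

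No region overlapped a member's own start window, the 300 bases from 250 before to 50 after a RefSeq gene start. The table held 51 such windows for 40 members, and 0 of them overlapped a region, which allows a share of up to 5.88% (3 counts of 51, counting error only). At other protein-coding genes 192 of 21212 windows (0.905%) did, so a count of 0 in 51 is close to that background. The windows of the members were richer in CpG, the dinucleotide at which mammalian DNA is mostly methylated, with a median of 20 CpG per window (quartiles 10.5 and 30) against 13 (4 and 24) at other protein-coding genes. Glucocorticoid receptor half-sites (TGTTCT, read on both strands) were in 5 of the 51 windows (9.80%) and in 16.2% of the others. Those 5 include several starts of the same gene, Sema4d, and the windows were not matched for CpG. The TEAD core motif (GGAATG, both strands), named here because the series title concerns TEAD1, was in 7 of 51 (13.7%) and in 13.6% of the others.

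The 5 windows below came within 2 kb of a region and are shown to give the sequence that stood unlisted beside it. They are RefSeq sequences of GRCm38.p6 (the assembly of mm10), written 5′ to 3′ on the gene's strand, with CpG in capitals. The Sema4d window, at chr13:51748761-51749060 on the minus strand, belongs to a start inside the gene, holds 3 CpG and lies 0.591 kb from a region of score 55.4. Ephb4, at chr5:137349859-137350158 on the plus strand, has 14 CpG and a region of score -50.1 lying 1.35 kb away. Sema5b, at chr16:35541112-35541411 on the plus strand, has 27 CpG and a region of score 21.4 at 1.46 kb. Ephb2, at chr4:136835963-136836262 on the minus strand, has 24 CpG and a region of score 184 at 1.73 kb. Slit3, at chr11:35121206-35121505 on the plus strand, has 41 CpG and a region of score -39.9 at 1.85 kb.
Sema4d: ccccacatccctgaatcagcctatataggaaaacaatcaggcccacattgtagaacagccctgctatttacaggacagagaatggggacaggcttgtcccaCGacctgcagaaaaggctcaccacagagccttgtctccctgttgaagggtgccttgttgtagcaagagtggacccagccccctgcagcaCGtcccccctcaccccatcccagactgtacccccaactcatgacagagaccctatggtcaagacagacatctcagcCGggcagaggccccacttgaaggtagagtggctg
Ephb4: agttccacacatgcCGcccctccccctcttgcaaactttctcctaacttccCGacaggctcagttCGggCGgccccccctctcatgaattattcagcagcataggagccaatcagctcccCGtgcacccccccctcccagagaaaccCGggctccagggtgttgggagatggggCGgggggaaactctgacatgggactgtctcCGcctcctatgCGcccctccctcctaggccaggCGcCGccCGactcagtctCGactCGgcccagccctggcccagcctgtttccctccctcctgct
Sema5b: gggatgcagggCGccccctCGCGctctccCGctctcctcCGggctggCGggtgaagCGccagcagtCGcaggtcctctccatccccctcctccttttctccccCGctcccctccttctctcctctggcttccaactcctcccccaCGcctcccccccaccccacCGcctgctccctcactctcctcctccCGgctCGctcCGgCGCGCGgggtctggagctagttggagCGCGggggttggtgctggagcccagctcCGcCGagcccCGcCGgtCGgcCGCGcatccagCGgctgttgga
Ephb2: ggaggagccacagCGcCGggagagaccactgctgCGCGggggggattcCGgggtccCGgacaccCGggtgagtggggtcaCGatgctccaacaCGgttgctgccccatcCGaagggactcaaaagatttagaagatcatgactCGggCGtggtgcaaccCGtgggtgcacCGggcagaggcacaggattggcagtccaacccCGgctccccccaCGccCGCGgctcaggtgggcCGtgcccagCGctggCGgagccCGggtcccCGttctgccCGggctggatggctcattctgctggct
Slit3: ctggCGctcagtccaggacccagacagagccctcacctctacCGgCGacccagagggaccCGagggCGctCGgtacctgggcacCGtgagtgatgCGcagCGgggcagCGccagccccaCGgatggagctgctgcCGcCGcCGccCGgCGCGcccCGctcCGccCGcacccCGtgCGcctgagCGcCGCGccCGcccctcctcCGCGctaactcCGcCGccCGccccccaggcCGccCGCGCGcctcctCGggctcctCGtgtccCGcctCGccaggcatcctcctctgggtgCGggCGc

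The CpG density of these 5 windows spanned nearly the whole range of the members' windows (2 to 42), so a nearby region came with CpG-poor and CpG-rich starts alike.

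Class 3 semaphorins, the secreted ligands of neuropilin and plexin complexes, mostly had few and weak regions. Sema3a, a repellent of sensory axons, had 4 regions over 479 kb (scores 49.3, 28.8, 29.4 and -30.6). The first of them lay 0.403 kb inside the lower end of the gene body. The start window listed for Sema3a lies elsewhere, 121 kb from its nearest region. Here and below, a distance from a gene start counts from the end of the gene body, which can differ from a listed start. Its relatives Sema3c and Sema3e had only positive regions, with scores of 33.9 and 23.7 at Sema3c and a single 36.6 at Sema3e. Sema3e signals directly to plexin D1, and 148 of its 200 like-length genes had more regions.

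The other 6 of the 7 negative class 3 regions stood at Sema3d, Sema3g and Sema3f. Sema3d had 3 negative regions (-22.0, -123 and -54.6) at 29.8, 46.1 and 59.2 kb from its start, and 1 positive region (77.0) at 3.68 kb from its far end. Sema3g, which is expressed in endothelium, had -66.7 and -101 within 12.5 kb of gene, a count that only 2 of 200 genes of like length exceeded. Sema3f had 1 region of -61.4 at its upper end, and Sema3b had none.

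Of the 7 membrane-bound semaphorins 5 carried regions, and each of these 5 had both signs. Sema4d, a ligand of plexin B1, had 6 regions, and its 3 positive ones (55.4, 23.3 and 30.0) lay together at 43.9, 43.7 and 43.5 kb from the gene start. Its strongest region, -155 over 347 bp, lay 87.5 kb from the start, and 2 weaker negative ones scored -21.0 and -29.3. Sema5b had 7 regions, more than 192 of 200 genes of like length: 5 were positive (21.4, 71.6, 56.8, 120.25 and 28.1) and 2 negative (-151 and -49.0). The 2 strongest had opposite signs and lay close together, 120.25 at 61.4 kb and -151 at 63.0 kb from the gene start.

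The remaining membrane semaphorins had 6 regions or fewer. Sema6a, a ligand of plexin A2 and A4, had 6 regions, 3 of each sign, with 113 the strongest and -22.7 at 1.51 kb outside its lower end. Sema5a had 4 regions, of which 103 was the strongest, and Sema6d had 3 (-83.4, -25.9 and 31.2), fewer than 150 of its 200 like-length genes. Sema4a and the GPI-anchored Sema7a had none.

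Plexins, the signal-transducing receptors of semaphorins, differed from gene to gene. Plxna4 had 13 regions, 7 negative and 6 positive, and all stayed below an absolute score of 100 (-78.2 to 50.3). One of them, -43.0, lay 1.22 kb outside the upper end of the gene. Plxnc1, the receptor of Sema7a, had 5 regions with 4 positive (46.0, 51.7, 113 and 47.6) and 1 negative (-112). Plxna1 had a single region of -69.3 and Plxnd1 a single region of 49.7.

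Plxna2 had no region over 197 kb, where 175 of 200 genes of like length had at least 1. Plxnb1 and Plxnb2, both about 26 kb long, had none either, and 30.5% of the like-length genes of Plxnb1 and 32% of those of Plxnb2 had one.

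The neuropilins, co-receptors for class 3 semaphorins and for VEGF, tilted to positive scores at Nrp1 but not at Nrp2. Nrp1 had 5 regions, all positive, and 4 of them had nearly the same score (31.2, 31.6, 31.3 and 31.9), while the fifth, 92.1 kb from the gene start, scored 129. Of the 1095 protein-coding genes with at least 5 regions, 44 (4.02%) had only positive ones. Outside the window of Nrp1, within 500 kb on both sides, 5 of 6 regions were negative and 1 positive. Nrp2 had 6 regions in 2 runs. The first 3 from the gene start were positive (126, 68.6 and 34.6) and the last 3 negative (-37.5, -51.3 and -40.3). Of the 11 neuropilin regions 3 were negative (27.3%, 9.75 to 56.6).

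**Figure D3:**
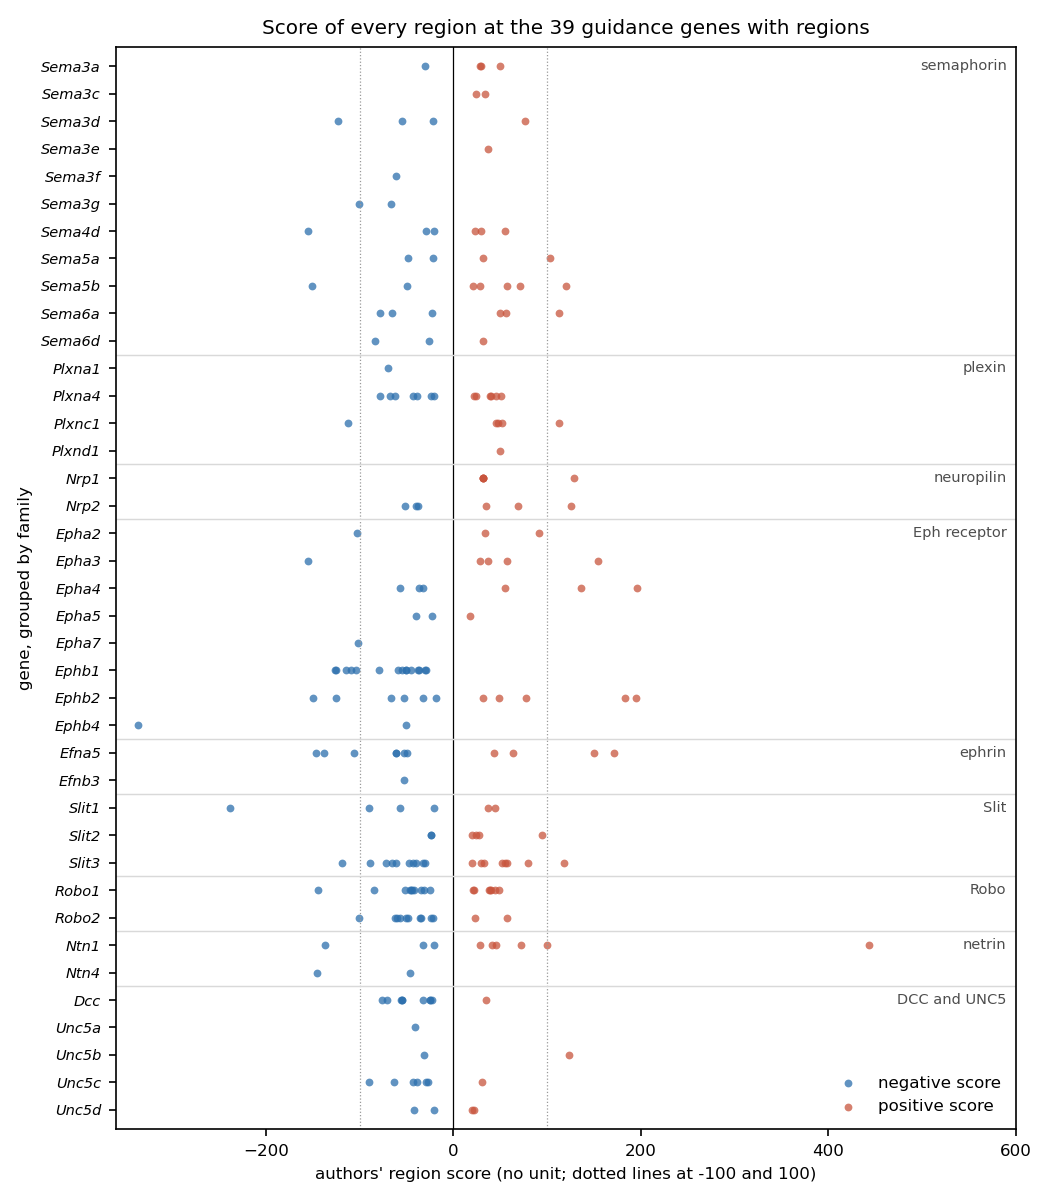
Score of every region (x axis, the authors' score, no unit) at each of the 39 guidance genes with regions (y axis), grouped by family; blue is negative, red positive, and dotted lines mark -100 and 100. Apart from 443 at Ntn1, -336 at Ephb4 and -238 at Slit1, all points lie between -155 and 196, and Ephb1 has negative points only.

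Among the Eph receptors, the kinases that bind ephrins, Ephb1 was distinct in sign. It spans chr9:101922128-102354693, and all of its 15 regions were negative, with scores of -29.5 to -126 and 5 of them at -100 or below. The regions ran from 3.84 kb to 387 kb from the gene start, and 2 of them also overlapped the gene Gm31326. Genes of its length had a median of 6 regions (quartiles 3 and 11), and 22 of 200 had more than 15. Of the 303 protein-coding genes with at least 10 regions, 25 (8.25%) had only negative ones. Outside its window, within 500 kb on both sides, 15 of 23 regions were negative and 8 positive.

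Ephb2, another EphB receptor, had 11 regions, 6 negative and 5 positive, whose sign changed repeatedly along the gene. From its lower end the scores were -66.6, 195, -32.1, 48.8, -52.9, 77.0, -149.9, 31.9, -17.99, -125 and 184. The 2 strong positive regions had absolute scores above 1.04 per bp, a level that about 97.4% of listed regions stayed below. Only 10 of 200 genes of like length had more regions.

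Ephb4, a receptor on venous endothelium, held the strongest region of the Eph genes. It is 340 bp long (chr5:137372410-137372749), lies 1.77 kb inside the far end of the gene and scored -336, a size reached by 0.785% of the list. Its other region, -50.1, lay 1.6 kb before the gene start. Ephb3 and Ephb6 had none.

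The 5 EphA receptors had 8 negative and 10 positive regions. Epha4, which binds ephrins of both classes, had 3 positive regions in the part of the gene away from its start (196, 136 and 54.6) and 3 negative ones next to them (-32.8, -57.2 and -36.7), with none in the 68.7 kb nearest the start. Epha3, which binds ephrin-A ligands, had 5 regions: its only negative one (-155) lay 297 kb from the gene start, a strong positive one (154) lay 176 kb from it, and the other 3 were positive and weaker (37.2, 28.8 and 56.8).

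The remaining EphA genes had 3 regions or fewer. Epha2, a receptor found on epithelial cells, had 90.9 inside the gene, -103 at 0.73 kb and 33.5 at 3 kb beyond its upper end, and only 4 of 200 like-length genes had more. Epha7 had a single region of -102, and Epha5 had 3 weak ones (-39.5, 18.04 and -22.7) over 363 kb.

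Regions at the ephrins were nearly all in 1 gene. Efna5, a GPI-anchored ligand of EphA receptors and of Ephb2, had 11 of the 12 regions, 7 negative and 4 positive. Its strong regions were of both signs, 172 and 149.7 beside -147, -138 and -106. Between 204 and 132 kb from its start, 6 consecutive regions were negative. The remaining ephrin region was one of -53.1 at 4.28 kb from Efnb3, which overlapped the neighbouring gene Wrap53 and cannot be assigned to either. Efna1, Efna2 and Efnb2 had none, and these genes are 9.22 to 44 kb long.

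The Slits, secreted repellents, all had regions of both signs. Slit3 had the most regions of any member, 18 over 587 kb (10 negative and 8 positive), with -119 and 118 the strongest, at 375 and 401 kb from the gene start. Its like-length genes had a median of 7, and 22 of 200 had more than 18. Slit1 had 6 regions, among them -238 over 529 bp (chr19:41688055-41688583). A region of -90.2 lay 1.21 kb outside its lower end and also within 5 kb of the gene Lcor. Another of 37.2 lay 0.4 kb outside its upper end and overlapped the gene Gm19424. Neither can be assigned to Slit1 alone.

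Slit2 had 6 regions and none of absolute score 100 or more. Its 2 negative regions (-23.9 and -24.0) lay 5.48 and 7.98 kb from the gene start, and its 4 positive ones (24.4, 19.7, 27.5 and 94.7) further along. The first of these regions was 621 bp long yet scored -23.9, an absolute score of 0.0386 per bp that only 0.103% of the list fell below.

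Slit2 and Slit3 each host a copy of miR-218, a microRNA that represses Robo1 and Robo2. The mature sequence, the same from both copies, is shown with its seed (bases 2 to 8) in capitals because it links these ligand genes to their receptors.
mmu-miR-218-5p: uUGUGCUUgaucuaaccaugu

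The hairpin in Slit3, at chr11:35616816-35616925 on the plus strand, lay 1.91 kb from a region of score 20.3. That in Slit2, at chr5:48223942-48224051 on the plus strand, was 79 kb from the nearest region. Neither hairpin overlapped a region.

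The Robo receptors are among the longest members, and together they held 29 regions, 1.37 times the sum of their like-length averages. The match in length is loose here. The like-length genes ran from 522 to 1973 kb for Robo1 (1020 kb) and from 529 to 2390 kb for Robo2. Robo1 had 17 regions (10 negative and 7 positive) and Robo2 had 12 (10 negative and 2 positive), against a median of 8 and an upper quartile of 16 for genes of like length in both cases. Counted from the start of Robo1, 8 of the first 9 regions were negative, among them the strongest (-145 over 586 bp), and 6 of the last 8 were positive. Robo2 had -101 as its strongest region.

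Netrin-1 held the strongest region of all 50 genes. At Ntn1, a secreted attractant that also acts outside the nervous system, a region of 589 bp at chr11:68384474-68385062 scored 443, the 135th largest absolute score in the list of 34139. It lay 1.76 kb inside the upper end of the gene, beside a smaller positive region (41.2), and a negative region of 511 bp (-137) followed 2.58 kb outside the gene. With 9 regions, 6 of them positive, Ntn1 was exceeded by 3 of its 200 like-length genes. Ntn4, a basement membrane netrin, had 2 regions, both negative (-46.6 and -145).

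The netrin receptors were mostly negative and weak. Dcc had 10 regions over 1098 kb, 9 of them negative, with -76.5 the strongest and a lone positive score of 34.6. One of its regions was 949 bp wide but scored only -54.4, or 0.0573 per bp in absolute terms, which is below all but 0.296% of the list. Unc5c had 6 of 7 negative (strongest -89.7), of which -43.2 overlapped the neighbour Bmpr1b. Unc5b was the exception, with 123 beside -31.0, while Unc5a had -41.3 and Unc5d had 4 weak regions, 2 of each sign.

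**Figure D4:**
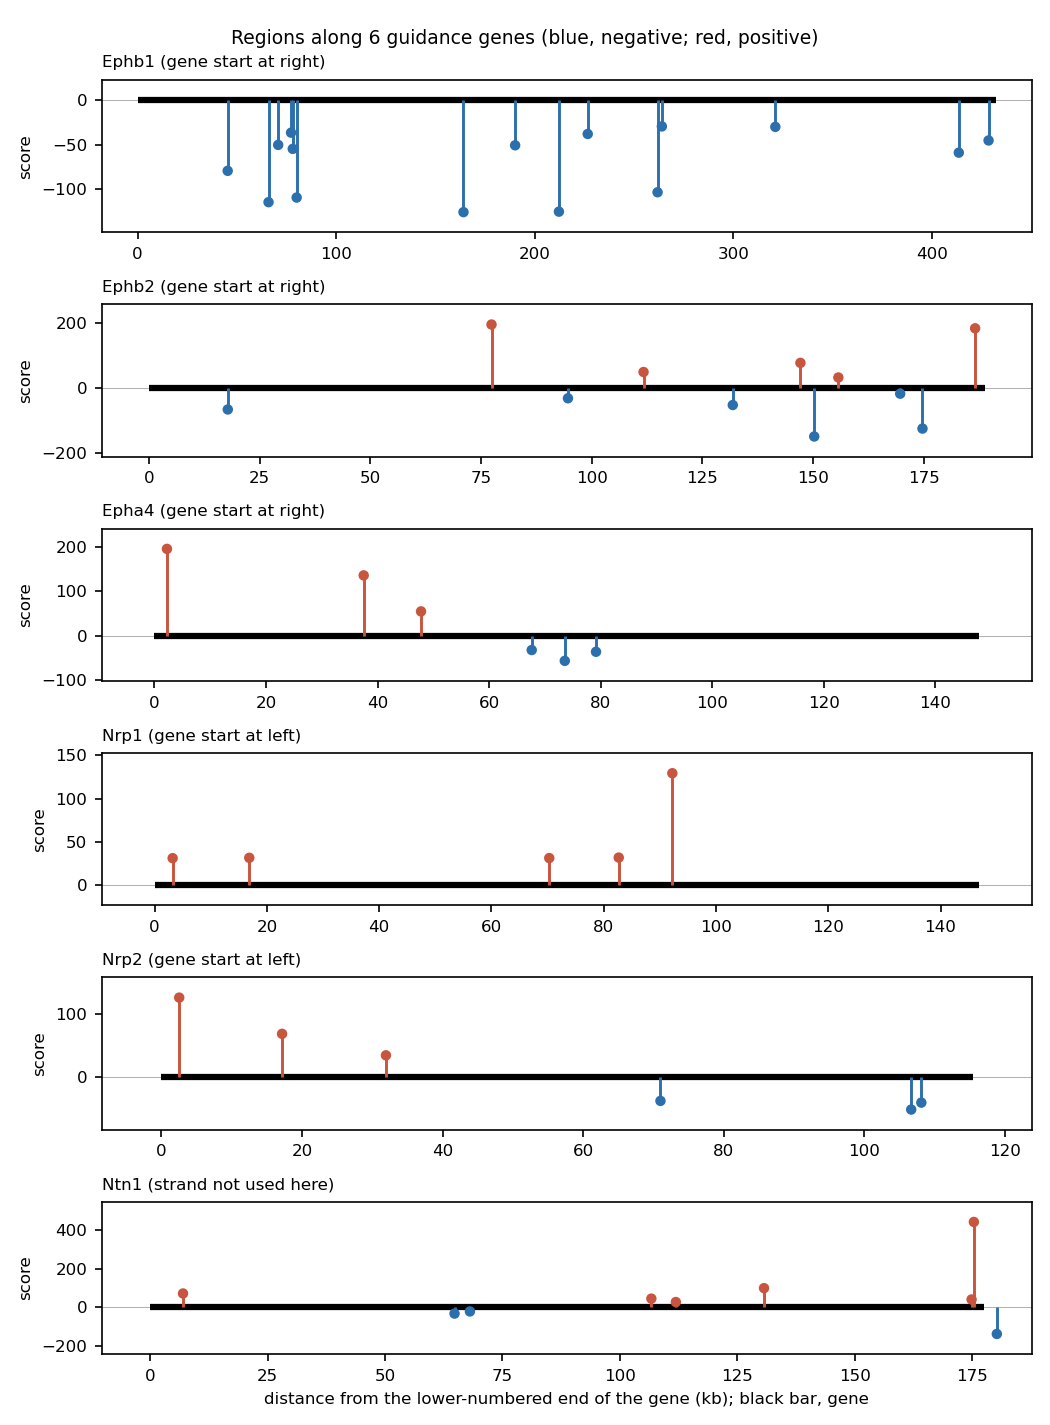
Score of each region (y axis, no unit, scale set per panel) against distance in kb from the lower-numbered end of the gene (x axis) for Ephb1, Ephb2, Epha4, Nrp1, Nrp2 and Ntn1; the black bar is the gene. Ephb1 is negative throughout, Nrp1 is positive throughout, Ephb2 changes sign repeatedly, and Epha4 and Nrp2 each split into 3 positive and 3 negative regions.

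The 11 members without a region were mostly short. They ranged from 9.22 kb (Efna1) to 44 kb (Efnb2), apart from Plxna2. At the 5 kb border, the last regions counted were at Efnb3 (4.28 kb, -53.1) and Sema4d (3.05 kb, -29.3), and the first left out were near Plxna1 (5.15 kb, -50.3) and Epha2 (5.37 kb, -21.4).

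Genes of the same families outside the members, and genes that act downstream, were counted in the same way. Of the 22 further family genes 11 had a region, where like-length genes averaged 37.7%. Their 20 regions stood against 29.6 for the sum of like-length averages, so the members' excess in number of regions was not seen here. Of these 20 regions 15 were negative (75%, 53.1 to 88.8). Only Neo1, which encodes the netrin receptor neogenin, had a strong one (108). Members and these genes together had regions in 50 of 72 (69.4%).

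Intracellular effectors of guidance receptors had regions in 33 of 44 genes (like-length average 69.7%). Their 200 regions stood against 135 for the sum of like-length averages, and 138 were negative (69%). Grip1, a scaffold that binds ephrin-B and EphB proteins, had 33 regions, 28 negative, with a strongest score of -210.5. The guanine exchange factor genes Kalrn and Trio had strongest scores of -231 and -170.3, and Vav2 of -181. Mical3 of the semaphorin pathway had a strongest score of -261, and Srgap1 of the Robo pathway one of -199. The actin regulators Ablim1 and Enah were positive at their strongest, with 294 and 186.

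Several guidance genes are also active in vessels and nerves, so markers of cells a sort could carry along were counted. All 10 endothelial markers had a region (like-length average 62.4%), with 28 of 43 regions negative. Of 10 Schwann cell and glial markers 2 had one, Mbp and S100b (like-length average 32.8%). The part of other cell types in the regions at guidance genes was not tested.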

How the data were processed

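Genomic DNA was sheared, bisulfite-converted, amplified and sequenced, per the labels' protocols, in 1 PDGFRα+ and 1 CD137+ library. The authors deposited a list of regions with a signed score per region, on mm10, as the submitters' processing notes record. For the aligner, region caller, thresholds, coverage and meaning of the score, the sources used here give nothing, so the score only ranks, filters and signs regions within this list.

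Gene positions came from RefSeq for GRCm38.p6. All 50 members matched by symbol. Like-length genes are the 200 other protein-coding genes nearest in log length. Counts were tested on simulated regions and against direct counting. Members and lists were chosen with earlier results of these data known. Described singly are members with a region of absolute score 100 or more, 5 or more regions, or a region at a gene end or start window, and the up to 10 strongest other pathway genes, of which 2 are not reported here; the rest are named for completeness. Versions were Python 3.11.15, pandas 2.3.3 and SciPy 1.17.1. Alternatives varied the window, score, overlap, members and number of like-length genes.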

Additional observations from a re-analysis of the deposited data

How the results depend on the processing

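Members with a region numbered 38 to 47 over gene bodies only, 50 kb on both sides and half-overlap, and the negative share was 55.3% to 61.1% over all 7 alternatives, inside its main interval. One of them left out Ephb1 and was chosen after seeing the data. The share of other genes with a region was not counted for the changed windows. A wider window raises that share too, so these member counts stand without a background. With only regions of absolute score 100 or more, the counts fell to 24 members, 11 ligand and 13 receptor genes, since fewer regions were counted. Genes of like length averaged 28.1%, 26.4% and 29.6% with such a region. The like-length share with a region was 68.5% with 100 and 68.2% with 400 closest genes. CpG content was not matched. Unknown depth limits every region. No paired analysis was possible because each group has 1 library.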
